A study of Mus musculus with 12 samples.

Results

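The genes described here encode proteins that neutrophils store in their granules or hold in bulk in their cytosol: S100a8, S100a9, Ngp, Camp, Ltf, Lcn2, Retnlg, Mmp8 and Mmp9. Their probe sets were taken by gene symbol from the array's gene table, with no filter on low values, which gave 9 of the 45037 probe sets that are not controls. These 9 probe sets measured 8 of the 9 genes, out of 18193 genes that have a probe set of their own. Mmp9 had 2 probe sets and Retnlg had none under its symbol, so Retnlg has no value here. Averaged over all arrays, 8 of the 9 probe sets reached 5 on the log2 scale, and that of Mmp8 did not.

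Total RNA of whole thymus from mice aged 7 to 8 weeks was measured on 12 one-colour Affymetrix arrays, 3 biological replicates in each of 4 genotypes. The labels call XXsry and XY-sry mice male and XX and XY- mice female, so that XXsry set against XX, and XY-sry against XY-, each compare mice with and without Sry on the same sex chromosomes. XX set against XY-, and XXsry against XY-sry, compare the sex chromosome complements at the same gonadal sex. No source used here states the strain, where the Sry gene sits or whether mice were littermates. The thymus was dissected and frozen whole, so each value covers every cell in the organ, blood cells included.

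The values are log2 probe set values that the authors made with RMA, a method that corrects, normalizes and summarizes the probes of an array. Array medians lay between 4.02 and 4.10. The labels held on 3 probe sets. Xist, the RNA of the inactive X chromosome, lay at 11.59 to 11.63 in XXsry and 11.10 to 11.55 in XX, and at 3.41 to 4.14 in XY-sry and 3.50 to 4.19 in XY-. Sry lay at 6.74 to 6.95 in XXsry against 5.33 to 5.39 in XX, and at 6.84 to 7.20 in XY-sry against 5.23 to 5.65 in XY-. Eif2s3y, a Y-linked gene, lay at 7.83 to 8.17 in XY-sry and 7.14 to 8.17 in XY-, and at no more than 2.28 in any XX or XXsry array.

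Neutrophils make their granule proteins in waves while they mature in the bone marrow. Myeloperoxidase and the serine proteases of primary granules come first, lactoferrin, lipocalin 2, cathelicidin and neutrophilic granule protein of secondary granules follow, and the gelatinase of tertiary granules comes last. S100a8 and S100a9 pair as calprotectin, a calcium- and zinc-binding protein that fills the cytosol of neutrophils and is also made by monocytes and by inflamed epithelium. The C/EBP and PU.1 transcription factors are known to drive granulocyte genes of this kind.

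S100a8 and S100a9 are neighbours on chromosome 3 with 0 protein-coding genes between them in RefSeq GRCm38.p6. On chromosome 9, Camp and Ngp have 8 protein-coding genes between them, and Ngp and Ltf have 20. Promoters of 8 of the 9 genes, Retnlg included, were found in the RefSeq table, and Mmp9 was not. The 250 bases before the start of the 4 genes whose levels differed most between groups are shown, 5′ to 3′ on the strand of the gene. Capitals mark matches to TTGNNCAA, a C/EBP dimer site that reads the same on both strands, to GAGGAA, the core of a PU.1 site (TTCCTC on the other strand), or to TATAAA. The S100a8 promoter lies at chr3:90668821-90669070 (plus strand), that of S100a9 at chr3:90695722-90695971 (minus), that of Ngp at chr9:110419558-110419807 (plus) and that of Camp at chr9:109849457-109849706 (minus).
S100a8: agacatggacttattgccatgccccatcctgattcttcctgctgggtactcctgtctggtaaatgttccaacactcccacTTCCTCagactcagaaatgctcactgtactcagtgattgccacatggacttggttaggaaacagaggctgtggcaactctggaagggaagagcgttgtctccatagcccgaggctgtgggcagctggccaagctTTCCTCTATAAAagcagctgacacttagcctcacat
S100a9: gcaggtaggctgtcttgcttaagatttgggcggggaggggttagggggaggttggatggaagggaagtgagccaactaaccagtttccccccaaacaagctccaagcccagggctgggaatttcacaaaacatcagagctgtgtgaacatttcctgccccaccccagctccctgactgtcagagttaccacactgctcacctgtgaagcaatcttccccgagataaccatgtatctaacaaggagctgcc
Ngp: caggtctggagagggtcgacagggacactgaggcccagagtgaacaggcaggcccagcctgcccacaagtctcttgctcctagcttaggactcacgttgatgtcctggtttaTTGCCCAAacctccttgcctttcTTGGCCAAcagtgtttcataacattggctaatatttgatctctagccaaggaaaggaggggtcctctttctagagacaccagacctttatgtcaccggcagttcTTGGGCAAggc
Camp: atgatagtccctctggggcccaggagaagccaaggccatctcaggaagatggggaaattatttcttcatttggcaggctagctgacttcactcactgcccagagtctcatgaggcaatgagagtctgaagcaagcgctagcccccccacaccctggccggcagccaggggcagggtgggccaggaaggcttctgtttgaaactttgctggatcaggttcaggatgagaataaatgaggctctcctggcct

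Ngp held the C/EBP letters at 3 places, starting at -138, -115 and -11 from the start of the gene. S100a8 held TTCCTC at -170 and at -36, and TATAAA at -30 directly after the second of these, with no base shared between them. S100a9 and Camp held none of the 3 motifs in this window. Among the other promoters, Ltf, Lcn2, Retnlg and Mmp8 each held TTGNNCAA at 1 place, and Ltf, Lcn2 and Mmp8 each held TTCCTC at 1 place. The C/EBP letters were thus in 5 of 8 promoters, where 5.65% of 32851 RefSeq promoters of the same length held them on either strand. The PU.1 letters were in 4 of 8, where 23.3% of all held them, and TATAAA in 1 of 8, where 12.4% of all held it. A match describes these letters and is not evidence of binding.

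S100a8 had log2 values of 5.93, 5.60 and 7.44 in XXsry thymus, against 8.38, 7.93 and 7.21 in XX thymus, for replicates 1, 2 and 3. In XY-sry thymus it had 7.50, 7.28 and 6.06, against 7.77, 7.51 and 9.01 in XY- thymus. Every XY-sry array lay below every XY- array, while XXsry replicate 3 lay above XX replicate 3, so the first pair of groups overlapped. The group means were 6.32 ± 0.98 in XXsry, 7.84 ± 0.59 in XX, 6.95 ± 0.78 in XY-sry and 8.10 ± 0.80 in XY- (SD, n = 3 each). Averaged over the complements, S100a8 differed by -1.33 ± 0.364 on the log2 scale with Sry minus without (SE, 95% interval -2.12 to -0.55), 2.52-fold higher without Sry, and it did not pass the threshold (limma adjusted p = 0.0919).

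S100a9, the partner of S100a8 in calprotectin, had 5.53, 4.90 and 7.30 in XXsry thymus, against 8.09, 7.52 and 6.83 in XX thymus. It had 7.41, 6.76 and 5.47 in XY-sry thymus, against 7.36, 7.28 and 8.69 in XY- thymus. Both pairs overlapped, through XXsry replicate 3 and XY-sry replicate 1, and the lowest arrays were XXsry replicate 2 and XY-sry replicate 3. The averaged difference was -1.40 ± 0.428 (95% interval -2.32 to -0.48), 2.64-fold higher without Sry, and did not pass (limma adjusted p = 0.131). Its values spanned 13.8-fold over the 12 arrays, and those of S100a8 10.6-fold.

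Ngp, the neutrophilic granule protein of secondary granules, had 5.32, 5.02 and 6.22 in XXsry thymus, against 7.08, 6.56 and 6.06 in XX thymus. It had 6.41, 6.14 and 5.01 in XY-sry thymus, against 6.25, 6.61 and 8.03 in XY- thymus. XY- replicate 3 stood highest, 0.95 above the next array, and both pairs of groups overlapped. The averaged difference of Ngp was -1.08 ± 0.329 (95% interval -1.79 to -0.37), 2.11-fold higher without Sry (limma adjusted p = 0.13).

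Camp, the antimicrobial peptide cathelicidin, had 4.52, 4.54 and 5.43 in XXsry thymus, against 6.30, 5.89 and 5.48 in XX thymus. It had 5.52, 5.38 and 4.47 in XY-sry thymus, against 5.83, 5.41 and 7.15 in XY- thymus. Every XXsry array lay below every XX array, and XY-sry replicate 1 lay above XY- replicate 2. Averaged, Camp differed by -1.03 ± 0.288 (95% interval -1.65 to -0.41), 2.05-fold higher without Sry (limma adjusted p = 0.0976). Calls on S100a8 and Camp turned on single arrays: S100a8 passed without XXsry replicate 3, at -1.61 (adjusted p = 0.0404), and Camp passed without XY- replicate 2, at -1.21 (adjusted p = 0.049).

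Lcn2, lipocalin 2, which withholds iron from bacteria by binding their siderophores, had 5.24, 4.84 and 5.31 in XXsry thymus, against 5.75, 5.77 and 5.08 in XX thymus. It had 5.28, 5.12 and 4.70 in XY-sry thymus, against 5.43, 5.14 and 6.35 in XY- thymus. The averaged difference of Lcn2 was -0.505 ± 0.194 (95% interval -0.92 to -0.09), 1.42-fold higher without Sry, and both pairs overlapped (limma adjusted p = 0.233).

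Ltf, the iron-binding lactoferrin, had 5.65, 5.37 and 5.67 in XXsry thymus, against 5.91, 5.80 and 5.23 in XX thymus. It had 5.75, 5.69 and 5.05 in XY-sry thymus, against 5.55, 5.39 and 6.76 in XY- thymus. XY- replicate 3 lay 0.85 above the next array, and the remaining values of the 4 groups overlapped throughout. Its averaged difference was -0.24 ± 0.215 (95% interval -0.71 to 0.22; limma adjusted p = 0.668), and -0.03 without XY- replicate 3.

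Mmp9, the gelatinase of tertiary granules, had 6.34, 5.86 and 6.10 in XXsry thymus, against 6.10, 6.18 and 6.31 in XX thymus, by its probe set with the higher mean. It had 6.06, 6.08 and 6.20 in XY-sry thymus, against 6.08, 6.11 and 6.50 in XY- thymus. The averaged difference was -0.11 ± 0.0903 (95% interval -0.30 to 0.09; limma adjusted p = 0.65), and the other probe set gave -0.10 (adjusted p = 0.703). Mmp8, the collagenase of secondary granules, lay between 2.74 and 3.11 on all 12 arrays, below the level of 5 used as the filter, and differed by -0.11 ± 0.0685 (limma adjusted p = 0.514). Values of Mmp8 this low leave little room for a difference to show, and nothing is read from its narrow range. The range of Mmp9 over the arrays was 1.56-fold.

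**Figure D1:**
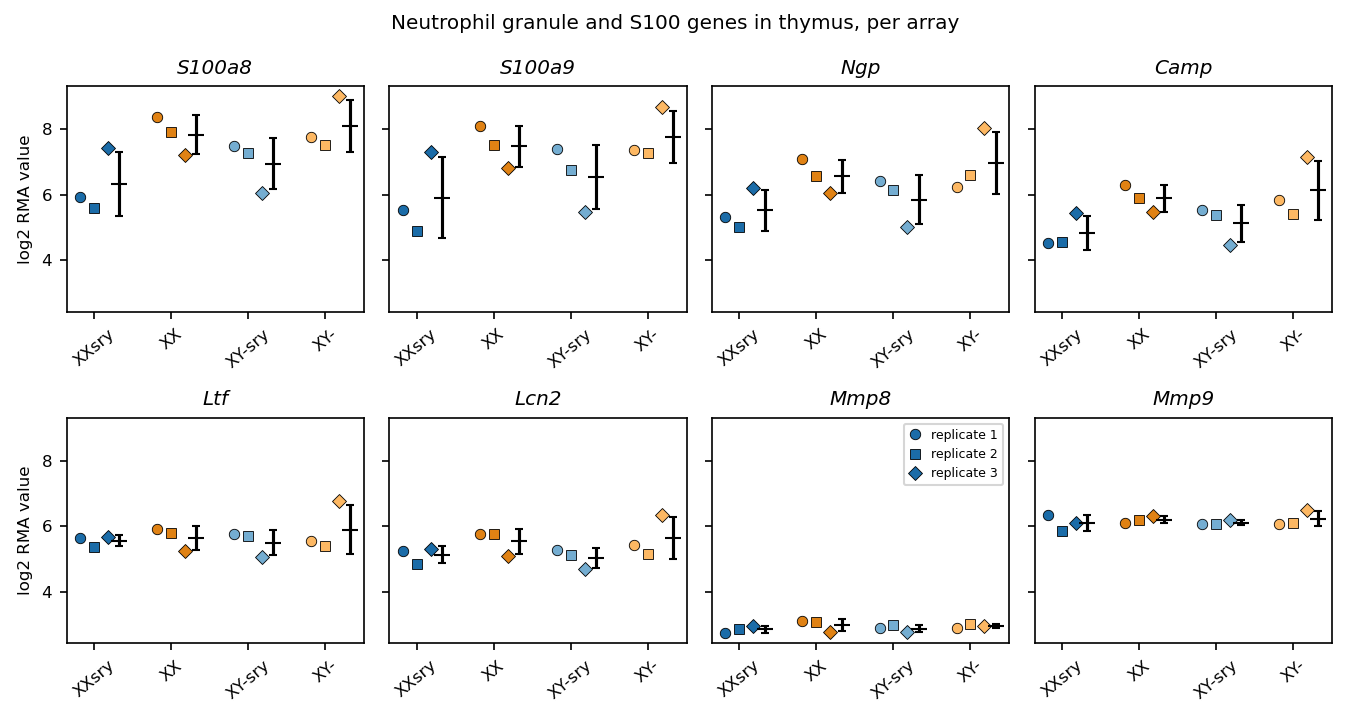
Log2 RMA value (y axis, the same range in all panels) of each measured gene on each array, by group (XXsry, XX, XY-sry and XY- along the x axis); points are arrays, with the shape giving the replicate number, and bars are the group mean ± SD of 3 arrays. S100a8, S100a9, Ngp and Camp have lower means in XXsry than in XX and in XY-sry than in XY-, with wide spread inside each group, while Mmp9 stays nearly level and Mmp8 lies near the bottom of the scale.

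Set against all probe sets, 0 of the 9 member probe sets passed the adjusted threshold of 0.05 for Sry averaged over the complements, where 1.54% of all probe sets passed in either direction and 0.693% passed as lower (limma). At an unadjusted p under 0.05, 5 of the 9 were lower, those of S100a8, S100a9, Ngp, Camp and Lcn2, where 6.79% of all were. All 9 differences lay below zero, with a median of -0.505 against 0.005 over all probe sets. The same 5 lay below -0.5, a mark that 0.504% of all probe sets passed, and S100a8, S100a9, Ngp and Camp lay below -1, as 0.04% of all did. The members were chosen with such results known, so these counts describe them and are not a test of the list. In bulk tissue, fewer neutrophils, less of these RNAs per neutrophil and less of them from other cells cannot be told apart.

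Within the XX mice the difference between XXsry and XX was -1.52 ± 0.514 for S100a8, which is 2.86-fold higher in XX (limma adjusted p = 0.411). For S100a9 it was -1.57 ± 0.605 (adjusted p = 0.489), for Ngp -1.05 ± 0.466 (adjusted p = 0.568) and for Camp -1.06 ± 0.407 (adjusted p = 0.484; limma). Lcn2 stood at -0.40 and Ltf at -0.08, and without XXsry replicate 2 S100a9 stood at -1.07 and Lcn2 at -0.26. Without XX replicate 3 Lcn2 stood at -0.63. None of the 9 probe sets passed, where 0.209% of all did (limma), and 4 had an unadjusted p under 0.05, all lower, where 4.15% of all were lower at that level. The arrays of the 2 groups did not overlap for 1 member, Camp, as for 7.39% of all probe sets in that direction.

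Within the XY- mice the difference between XY-sry and XY- was -1.15 ± 0.514 for S100a8, 2.22-fold higher in XY- (limma adjusted p = 0.292). S100a9 stood at -1.23 ± 0.605 (adjusted p = 0.346), Ngp at -1.11 ± 0.466 (adjusted p = 0.257) and Camp at -1.01 ± 0.407 (adjusted p = 0.236; limma). Lcn2 differed by -0.61 and Ltf by -0.40. Without XY- replicate 3 the differences were -0.69 for S100a8, -0.77 for S100a9, -0.58 for Ngp, -0.50 for Camp, -0.25 for Lcn2 and 0.027 for Ltf, and without XY-sry replicate 3 that of S100a9 was -0.69. Of the 9 probe sets 0 passed, where 2.77% of all did (limma), and 4 were lower at an unadjusted p under 0.05, where 7.52% of all were. S100a8 was the 1 member whose arrays did not overlap, as for 8% of all probe sets in that direction.

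The Sry difference was not shown to depend on the complement. For S100a8 the difference in the XY- mice minus that in the XX mice was 0.37 ± 0.728 (95% interval -1.20 to 1.94; limma adjusted p = 0.923). It was 0.005 without XXsry replicate 2 and 0.925 without XXsry replicate 3. The 9 probe sets had a median of -0.02 for this interaction, 0 passed it, and 0 had an unadjusted p under 0.05, where 0.375% of all probe sets passed and 9.59% had such a p (limma). The intervals of the 4 genes with the widest spread are broad enough to hold differences of more than 1 log2 unit either way.

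**Figure D2:**
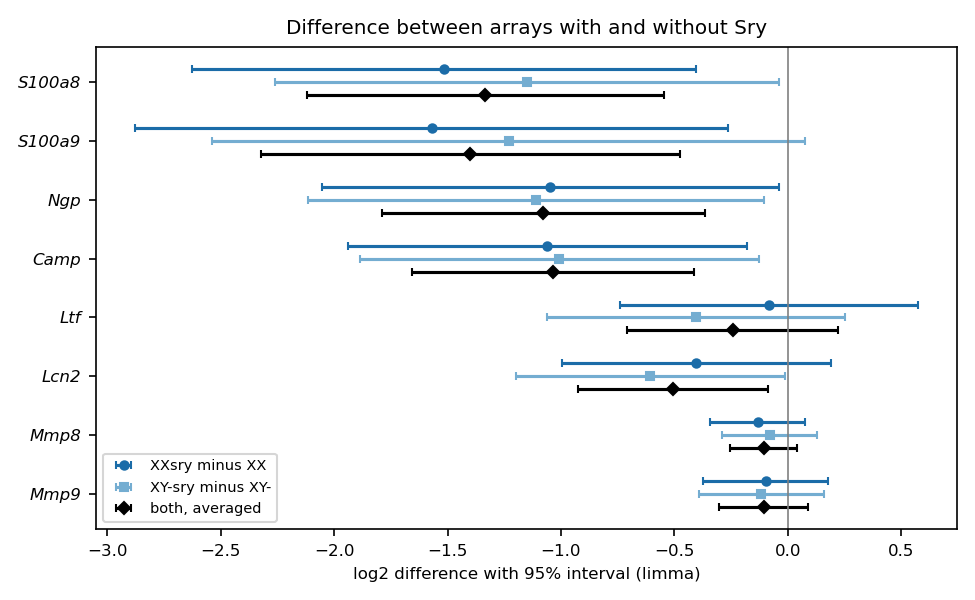
Log2 difference between arrays with and without Sry (x axis; points, with 95% limma intervals as bars) for each measured gene (rows), as XXsry minus XX, XY-sry minus XY- and the average of both; Mmp9 is its probe set with the higher mean. The averages of S100a8, S100a9, Ngp and Camp lie between -1.40 and -1.03, and those of Ltf, Mmp8 and Mmp9 have intervals that include zero.

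The sex chromosome complement gave smaller differences. With XX and XXsry set against XY- and XY-sry, S100a8 differed by -0.44 ± 0.364, S100a9 by -0.47 ± 0.428, Ngp by -0.365 ± 0.329 and Camp by -0.27 ± 0.288 (limma adjusted p = 0.998 each). Without XY- replicate 3 these became -0.21 for S100a8, -0.10 for Ngp and -0.012 for Camp, and without XXsry replicate 3 -0.72 for S100a8 and -0.81 for S100a9. Lcn2 stood at -0.005 ± 0.194, Ltf at -0.09 ± 0.215, Mmp9 at -0.02 and Mmp8 at 0.01. Of the 9 probe sets 0 passed, where 0.0577% of all did (limma), and 0 had an unadjusted p under 0.05, where 4.28% of all did. The 95% interval of S100a8 ran from -1.23 to 0.35 and that of Lcn2 from -0.42 to 0.41, so a 2-fold lower level of S100a8 in the XX complements lies inside its interval and a 2-fold change of Lcn2 lies outside.

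XX thymus against XY- thymus gave -0.26 ± 0.514 for S100a8 (limma adjusted p = 0.935), a difference that turned to 0.20 without XY- replicate 3 and to 0.06 without XX replicate 3. XXsry against XY-sry gave -0.62 ± 0.514 (adjusted p = 0.925; limma), with -1.18 without XXsry replicate 3 and -0.26 without XXsry replicate 2. Of the 9 probe sets 0 passed in either comparison, where 0.0533% of all passed in each (limma). At an unadjusted p under 0.05 there were 0 in both, where 7.86% of all probe sets had such a p for XX against XY- and 6.91% for XXsry against XY-sry.

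The variance of each gene was split into a share taken up by the group means and a share inside the groups. With 4 groups of 3 arrays, the group means take up some of the variance even without a difference between genotypes. The shares are therefore a description. The group means took up 54.1% of the variance of S100a8 over the 12 arrays, 51.8% of that of Camp, 48.3% for S100a9 and 48.2% for Ngp. Lcn2 had 36.0%, Mmp8 22.7%, Ltf 13.8% and Mmp9 12.2%, so for Ltf and Mmp9 nearly all the variance lay between replicates of a genotype. The pooled SD inside groups was 0.942 for S100a9, 0.799 for S100a8, 0.722 for Ngp and 0.630 for Camp. It was 0.467 for Ltf, 0.421 for Lcn2, 0.180 for Mmp9 and 0.125 for Mmp8.

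The same arrays were high and low for most of the genes. XY- replicate 3 was the highest of 12 for 7 of 8 genes, with Mmp8 the exception, and XX replicate 1 was the next for S100a8, S100a9, Ngp, Camp and Ltf. The lowest array was XXsry replicate 2 or XY-sry replicate 3 for 7 of 8 genes, again with Mmp8 the exception. As the mean over the 8 genes, each centred on its own mean, the arrays stood at -0.59, -0.88 and 0.05 in XXsry, against 0.59, 0.34 and -0.13 in XX. They stood at 0.10, -0.07 and -0.79 in XY-sry, against 0.15, 0.06 and 1.18 in XY-. XXsry replicate 3 thus lay above XX replicate 3, and XY-sry replicate 1 above XY- replicate 2, against the order of the group means.

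S100a8 split the arrays at a gap of 1.15: XXsry replicates 1 and 2 and XY-sry replicate 3 lay between 5.60 and 6.06, and the remaining 9 arrays between 7.21 and 9.01. Likeness between genes was therefore taken over those 9 arrays. They were picked by the values of S100a8 itself and come from different genotypes, which the permutation over all orders did not keep apart. The members were also chosen with earlier results of these data known. The permutation p-values given here and for Mmp9 and Mmp8 below are therefore a description and not a test of the relation. Over them S100a9 followed S100a8 with Pearson's r = 0.973 (exact permutation p = 6.61e-05, adjusted over 7 genes 0.000395) and Spearman's rho = 0.90 (exact p = 0.00203). Camp followed with r = 0.980 (exact permutation p = 0.000209, adjusted 0.000489) and rho = 0.833, and Lcn2 with r = 0.969 (exact permutation p = 0.000113, adjusted 0.000395) and rho = 0.917. Ngp gave r = 0.951 (exact permutation p = 0.000901, adjusted 0.00158) and rho = 0.917, and Ltf r = 0.888 (exact permutation p = 0.00227, adjusted 0.00318) and rho = 0.733.

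Without XY- replicate 3 and XX replicate 1, the 2 arrays farthest from the median of S100a8, r was 0.920 for Lcn2, 0.886 for Camp and 0.840 for S100a9. It was 0.646 for Ngp and 0.492 for Ltf, so among the 9 arrays the values for those 2 genes leaned most on these 2. Leaving arrays out by their S100a8 values also narrows its range, which can lower r by itself. These values therefore do not say how much of the relation over all 12 arrays rests on them. Mmp9 followed S100a8 with r = 0.589 (exact permutation p = 0.0931, adjusted 0.109) and rho = 0.277, and with -0.237 without the 2 arrays. Mmp8 gave r = 0.421 (exact permutation p = 0.26, adjusted 0.26) and rho = 0.519. Arrays of different genotypes enter these values; with each group's mean taken away, r over all 12 arrays was 0.986 for S100a9, 0.949 for Ngp, 0.948 for Camp, 0.842 for Lcn2, 0.818 for Ltf, 0.572 for Mmp8 and 0.176 for Mmp9, given as a description.

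**Figure D3:**
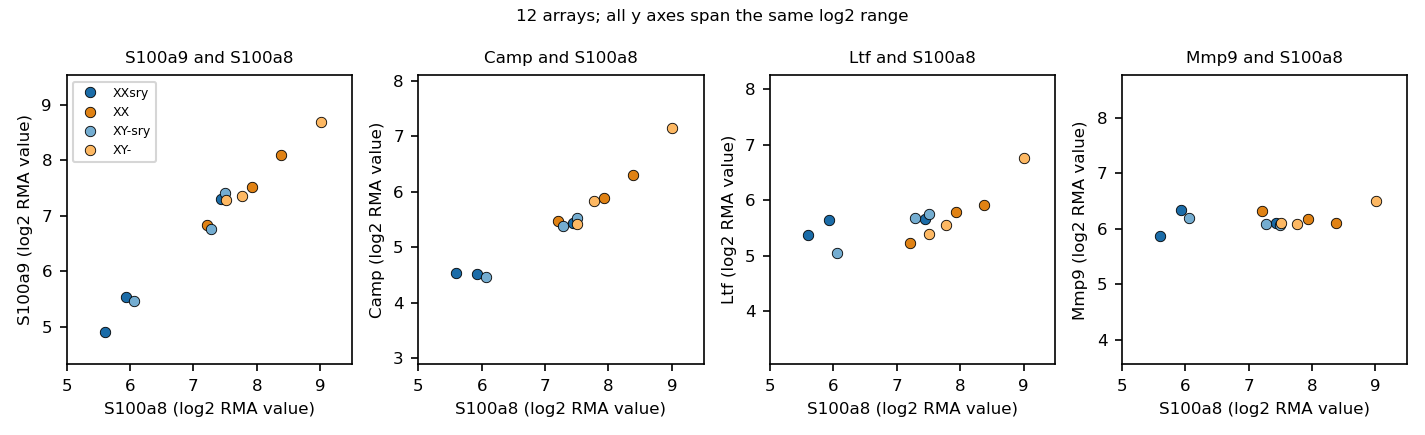
Log2 RMA value of S100a8 (x axis) against that of S100a9, Camp, Ltf and Mmp9 (y axes, all spanning the same log2 range) on the 12 arrays; each point is an array, coloured by group. S100a9 and Camp climb with S100a8 across arrays of every group, Ltf is high on 1 array, and Mmp9 is nearly level.

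Among 9489 other genes that averaged 5 or more on the log2 scale, the 8 most like the mean of the members over the 12 arrays were Ufm1, Ifit2, Saa3, Lrrk1, Sprr1a, Syt1, Pla2g4a and Rab8b. Their Pearson correlations with that mean ran from 0.858 to 0.915 and are a description of the genes picked. The ranges of these genes were narrow beside those of S100a8: Ufm1, a ubiquitin-like modifier, lay between 7.41 and 7.72, and Saa3, an acute phase protein, between 6.24 and 7.23. Sprr1a, a cornified envelope protein of epithelium, lay between 5.93 and 6.86. None of the 8 passed for Sry averaged over the complements, with limma adjusted p of 0.0699 for Sprr1a, 0.137 for Saa3 and 0.16 for Pla2g4a.

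Other genes of the neutrophil lineage differed by less than S100a8 for Sry averaged over the complements, but most of them had low values. A mean of at least 5 was reached by 0 of 5 primary granule genes, 3 of 10 other secreted genes and 2 of 11 receptors and signals. It was reached by 7 of the 8 members, so the sizes of these differences are not compared at like levels. Of 5 primary granule genes, 1 fell, Elane, the elastase, at -0.295 ± 0.0616 (limma adjusted p = 0.0336), with a median of -0.24 for the 5. Among all probe sets 0.693% passed as lower (limma), and the list was chosen with earlier results known. Elane had 4.05, 3.81 and 3.96 in XXsry thymus, against 4.20, 4.27 and 4.34 in XX thymus. It had 4.18, 4.17 and 3.95 in XY-sry thymus, against 4.26, 4.43 and 4.39 in XY- thymus, so all arrays with Sry lay below all arrays without it. Such a separation was seen for 0.693% of all probe sets. Elane lost its call in 9 of 12 leave-outs, keeping it without XXsry replicate 1, XY-sry replicate 2 or XY- replicate 1, and it also lost it with a covariate for RNA quality, the gap between the 3' and 5' probe sets of actin (adjusted p = 0.173). Mpo, the myeloperoxidase, lay between 3.21 and 4.08 and Prtn3, proteinase 3, between 3.65 and 4.62, both highest in XY- replicate 3, and all 5 genes had means below 5.

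Of 10 other secreted or granule proteins, 0 passed (limma), with a median of -0.17. Those with the smallest p were Adam8, a protease on myeloid cells (-0.24, limma adjusted p = 0.0846), and Pglyrp1, a peptidoglycan-binding protein (-0.35, adjusted p = 0.149; limma). Chil3, a chitinase-like protein, was chosen after its values were seen: it had 2.73, 2.54 and 3.07 in XXsry thymus, against 3.67, 3.36 and 3.49 in XX thymus. In XY-sry thymus Chil3 had 3.52, 3.15 and 2.90, against 3.54, 3.13 and 4.73 in XY- thymus, with the top value again in XY- replicate 3 (limma adjusted p = 0.152). Lrg1 and Hp, likewise chosen afterwards, had single high arrays elsewhere, Lrg1 at 5.43 in XY-sry replicate 3 and Hp at 5.71 in XXsry replicate 2.

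The defining surface receptors of mature neutrophils that were measured lay below the level of 5 used as the filter. Csf3r, the receptor for granulocyte colony-stimulating factor, lay between 3.83 and 4.03 on the 12 arrays, and Cxcr2, a chemokine receptor, between 2.56 and 3.01. Ly6g and Fpr1 had no probe set of their own in the gene table used. Of 11 receptors and inflammatory signals measured, 2 had a mean of at least 5 and 0 passed for Sry (limma), with a median of -0.035. The smallest p were those of Itgb2, an integrin of all leukocytes (-0.11, limma adjusted p = 0.284), and Fpr2, a formyl peptide receptor (-0.18, adjusted p = 0.362; limma). Probe sets as low as those of Csf3r and Cxcr2 leave little room for a difference to show, so their narrow ranges say nothing of how these receptors varied.

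**Figure D4:**
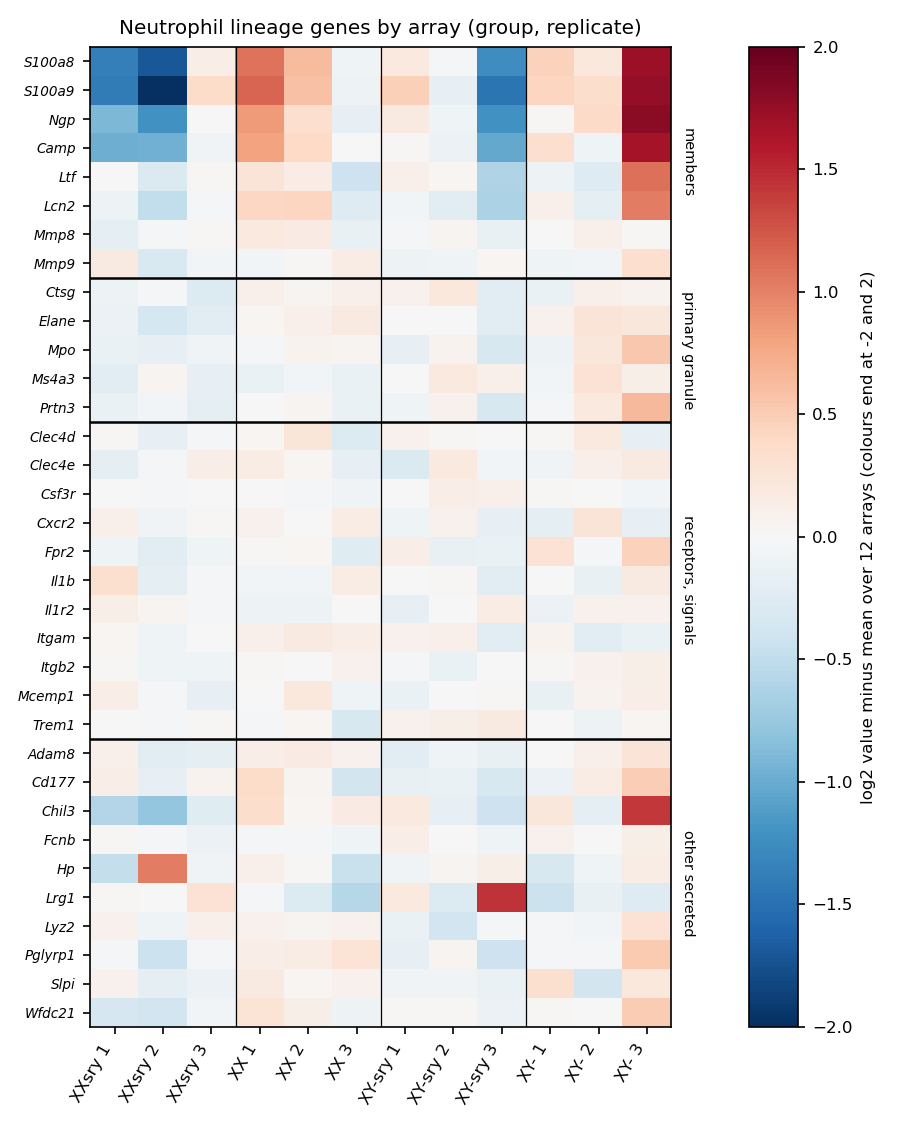
Log2 value minus the mean over 12 arrays (colour, ending at -2 and 2) for the members and for primary granule, receptor and signal, and other secreted genes (rows), by array (columns, in groups XXsry, XX, XY-sry and XY-). XY- replicate 3 is the darkest red column for 7 of 8 members and XXsry replicates 1 and 2 and XY-sry replicate 3 are blue for S100a8, S100a9, Ngp and Camp, while the receptor rows stay pale.

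Of 6 attractants and growth factors of neutrophils, 0 passed (limma), with a median of -0.11. Cxcl3 (-0.26, limma adjusted p = 0.0912) and Cxcl2 (-0.17, adjusted p = 0.476; limma), both ligands of Cxcr2, had the smallest p. Of 5 receptors reported for the S100a8 and S100a9 proteins, 0 passed (limma), with a median of -0.04. Cd36, a scavenger receptor, stood at 0.40 ± 0.129 (limma adjusted p = 0.152) and Ager, the receptor for advanced glycation end products, at 0.14 (adjusted p = 0.441; limma). Of 6 granulocyte transcription factors listed, 5 were measured, and Cebpe had no probe set of its own. Among those 5, 0 passed (limma), with a median of -0.08. Cebpa, which drives early granulocyte commitment, stood at 0.21 (limma adjusted p = 0.177) and Spi1, which encodes PU.1, at -0.13 (adjusted p = 0.363; limma).

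Other members of the S100 family, small calcium-binding proteins that many cell types make, included 3 of 11 that fell for Sry averaged over the complements, and 0 that rose (limma), with a median of -0.11. Among all probe sets 0.693% passed as lower (limma). This list was chosen with earlier results known, so the count describes it and is not a test of the family. S100a10, the partner of annexin A2, fell by 0.23 ± 0.048 on the log2 scale (limma adjusted p = 0.0345) and S100a14 fell by 0.265 ± 0.0565 (adjusted p = 0.0366; limma). For both genes every array with Sry lay below every array without it, as for 0.693% of all probe sets. S100a4, which is found in motile and activated cells, differed by -0.37 ± 0.0841, just under the threshold (limma adjusted p = 0.04999), and in the XY- mice by -0.50 (adjusted p = 0.0444; limma). S100a10, S100a14 and S100a4 each lost the averaged call in 10 of 12 leave-outs, with adjusted p over all alternatives up to 0.0896, 0.0953 and 0.123. With all 12 arrays they lost it under median centring (adjusted p = 0.0661, 0.0623 and 0.0621) and with the actin covariate (adjusted p = 0.0522, 0.0521 and 0.0829). S100a10 kept it without XX replicate 2 or XY- replicate 2, S100a14 without XXsry replicate 1 or XY- replicate 2, and S100a4 without XY-sry replicate 2 or XY- replicate 2. S100a4 kept its call in the XY- mice in 2 of 12 leave-outs, those of XY-sry replicate 2 and XY- replicate 2, and lost it under median centring (adjusted p = 0.0613), with only the groups compared (0.156) and with the actin covariate (0.213). Beside these differences of 0.23 to 0.37, the differences of S100a8 and S100a9 were wider, and so was their spread between replicates.

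Of the 4 Timp genes, inhibitors of metalloproteinases such as Mmp8 and Mmp9, 2 fell for Sry averaged over the complements, with a median of -0.24. Among all probe sets 0.693% passed as lower (limma). The list was chosen with earlier results known, so this count describes it and is not a test of the family. Timp1 had 5.34, 4.91 and 5.12 in XXsry thymus, against 5.54, 5.44 and 5.34 in XX thymus. It had 4.89, 4.89 and 4.98 in XY-sry thymus, against 5.66, 5.23 and 5.92 in XY- thymus. Timp1 fell by 0.50 ± 0.104 on the log2 scale (limma adjusted p = 0.033), and in the XY- mice by 0.68 (adjusted p = 0.0282; limma). Timp3 fell by 0.30 ± 0.0643 (limma adjusted p = 0.0381), with no overlap between arrays with and without Sry, as for 0.693% of all probe sets in that direction. Timp1 lost the averaged call in 9 of 12 leave-outs (kept without XXsry replicate 1, XY- replicate 2 or XY- replicate 3; adjusted p up to 0.0853) and the call in XY- mice in 5, those of each XY-sry array and of XY- replicates 1 and 3. The call in XY- mice was also lost with only the groups compared (adjusted p = 0.122) and with the actin covariate (adjusted p = 0.147). Timp3 lost its call in 10 of 12, keeping it without XY-sry replicate 2 or XY- replicate 2 (adjusted p up to 0.0928), and lost it under median centring (0.054) and with the actin covariate (0.0806).

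Markers of other cells that a thymus can hold were set beside these values. Red cell genes gave 3 measured of 6, 0 past (limma) and a median of 0.035, with Alas2 at 6.09 in XY-sry replicate 2 and between 3.10 and 3.75 on the other arrays. Hba-a1 did not exceed 2.97 on any array, and the 2 adult beta globin genes had no probe set of their own. The summed linear level of the 3 red cell genes was 20.8 to 27.9 in XXsry, against 22.5 to 23.5 in XX, and 23.9 to 83.2 in XY-sry, against 22.3 to 24.2 in XY-. XY- replicate 3, the highest array for most of the granule genes, stood at 24.2, the top of its own group and inside the range of XXsry. Of the 3, 0 had a mean of at least 5, so their low values leave little room for a difference to show. The part of blood in the values of S100a8 was not tested.

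Of 7 monocyte and macrophage markers measured, 0 passed for Sry averaged over the complements (limma), all 7 lay below zero, and the median was -0.15. C1qa, a complement subunit of macrophages, fell by 0.45 in the XY- mice (limma adjusted p = 0.0298), a call lost in 5 of 12 leave-outs, those of each XY-sry array and of XY- replicates 1 and 3. C1qa also lost it with only the groups compared (adjusted p = 0.123) and with the actin covariate (adjusted p = 0.216). The summed level of the 7 was 2205 to 2635 in XXsry, against 2468 to 2650 in XX, and 2050 to 2322 in XY-sry, against 2426 to 3041 in XY-. Of 4 B cell markers, 1 fell, Ms4a1, which encodes CD20, at -0.59 ± 0.122 (limma adjusted p = 0.0329), with a median of -0.17. Among all probe sets 0.693% passed as lower (limma). Ms4a1 lost its call in 9 of 12 leave-outs, keeping it without XXsry replicate 1, XX replicate 3 or XY- replicate 3, and lost it with the actin covariate (adjusted p = 0.19). The summed level of the B cell markers was 229 to 276 in XXsry, against 272 to 277 in XX, and 202 to 216 in XY-sry, against 247 to 280 in XY-. Both marker lists thus had lower summed levels in XY-sry than in XY- on every array, in the direction of the granule genes. Among single probe sets 8% lay apart in that direction. Between XXsry and XX both lists overlapped. XXsry replicate 1, among the low arrays for the granule genes, was the highest of its group for both lists, at 2635 and 276. The part of such cells in the values of S100a8 was not tested.

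Eosinophil, mast cell and basophil markers had 0 of 7 past (limma), with a median of -0.12, all 7 below zero and all at means below 5. Siglecf stood closest at -0.25 (limma adjusted p = 0.0523). The summed level of the 7 was 53.3 to 56.6 in XXsry, against 59.9 to 62.0 in XX. It was 51.2 to 54.3 in XY-sry, against 55.1 to 64.6 in XY-, so both pairs lay apart in the direction of the granule genes. Among single probe sets 7.39% lay apart in that direction for XXsry against XX and 8% for XY-sry against XY-. No such share was worked out for sums. The part of these cells in the values of S100a8 was not tested. Platelet markers had 0 of 5 past (limma) and a median of -0.01. Thymocyte markers had 0 of 7 past (limma) and a median of -0.04. Epithelial markers had 0 of 8 past (limma) and a median of 0.055, with Ly6d, a surface protein of epithelium and of lymphoid cells, at 0.33 (limma adjusted p = 0.0699) and Aire, the regulator of self-antigen display, at -0.25 (adjusted p = 0.116; limma). In XX mice 0 genes of any of these 15 lists passed for Sry (limma), and 0 passed for the averaged complement effect.

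The actin 3' minus 5' difference, a measure of RNA quality on these arrays, was 0.71, 0.76 and 0.72 in XXsry, against 0.76, 0.66 and 0.77 in XX. It was 0.83, 0.74 and 0.80 in XY-sry, against 0.69, 0.51 and 0.68 in XY-, so that every XY-sry array lay above every XY- array. With this difference as a covariate S100a8 stood at -1.46 (limma adjusted p = 0.191) and Camp at -1.29 (adjusted p = 0.131; limma) for Sry averaged over the complements.

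**Figure D5:**
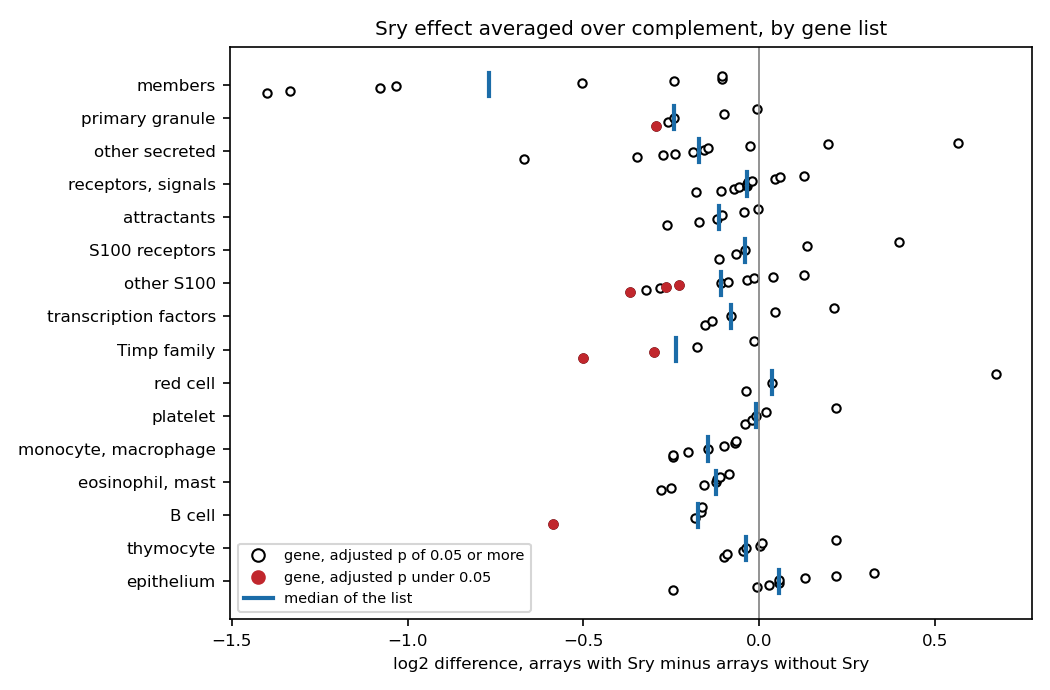
Log2 difference between arrays with and without Sry, averaged over the complements (x axis), for each gene of each list (rows; circles are genes, filled red where the limma adjusted p is under 0.05, bars are list medians). S100a8, S100a9, Ngp and Camp lie farthest to the left without passing, and the genes that passed lie between -0.59 and -0.23.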

How the data were processed

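Thymus RNA of 12 mice had been hybridized to 12 arrays, with 10 µg of total RNA labelled per the labels' protocols. RMA, named in the submitters' processing notes with no version, gave the deposited log2 values, 1 per probe set and array. The table held 45101 probe sets, and all but 64 controls were tested, 45037 with no filter. The platform's gene table gave 1 symbol to 34945, several to 932 and none to 9160. The probe set that averaged highest stands for its gene.

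The means of the 4 groups were fitted with limma 3.58.1 in R 4.3.3 (8 residual and 5.02 prior degrees of freedom, median standard error 0.0654 for Sry averaged over the complements). Adjusted p is Benjamini-Hochberg over all probe sets, with a threshold of 0.05. The fit was tested on simulated data. Correlations used exact permutation over all orders (scipy 1.17.1), and figures matplotlib 3.10.9. The number of arrays limits precision.

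Genes named were all members, and in each other list those past the threshold for Sry (at most 4) or else the 2 with the smallest p, apart from 3 that the text marks as chosen later. Of 117 genes in 16 lists, the members among them, 106 had a probe set. The members and lists were chosen with earlier results of these data known. Replicate numbers were not used to pair arrays. No 2 arrays were alike enough to be 1 sample (smallest root mean square difference 0.162). Up to 21 alternatives were tried for each comparison, apart from Mmp9 in XX mice and in XY- mice, with 22.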

Additional observations from a re-analysis of the deposited data

How the results depend on the processing

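The count of members past the threshold for Sry averaged over the complements was 0 under every alternative but 2: it was 0 to 1 when 1 array was left out, through S100a8 without XXsry replicate 3 and Camp without XY- replicate 2. For the other 6 comparisons it was 0 throughout. The averaged difference ran from -1.61 to -1.10 for S100a8 (adjusted p from 0.0404 to 0.197), from -1.75 to -1.13 for S100a9 (0.0505 to 0.26), from -1.26 to -0.81 for Ngp and from -1.29 to -0.78 for Camp. It ran from -0.63 to -0.33 for Lcn2 and from -0.37 to -0.028 for Ltf. Of 18 same-numbered pairs of arrays, 8 correlated above 0.1 in their deviations from the group means, as did 4 of 36 pairs with different numbers, and 8 of 12 arrays correlated best with one of their own number, so the numbers do not settle a pairing. With the replicate block 0 members passed, S100a8 had an adjusted p of 0.111, and 837 of all probe sets passed against 692. The block put Elane at an adjusted p of 0.0508, S100a4 at 0.0576 (0.0525 in XY- mice) and Timp3 at 0.0555.

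Differences near zero changed sign in places, and the cause was not tested. With 1 array left out the range was -0.22 to 0.023 for Mmp9 and -0.29 to 0.048 for Ltf in XX mice, and -0.19 to 0.018 for Mmp9 and -0.66 to 0.027 for Ltf in XY- mice. For the averaged complement effect it gave -0.083 to 0.044 for Mmp9, -0.22 to 0.12 for Ltf, -0.13 to 0.17 for Lcn2 and -0.025 to 0.0625 for Mmp8, and for XX against XY- it gave -0.55 to 0.20 for S100a8. Mmp8 in XY- mice was 0.049 with the actin covariate, Lcn2 for the complement 0.036 with array weights, and Mmp9 for the complement 0.00083 as the mean of its probe sets. In XY- mice the range with 1 array left out was -1.44 to -0.69 for S100a8, -1.66 to -0.69 for S100a9, -1.47 to -0.58 for Ngp and -1.37 to -0.50 for Camp. The interaction and the complement effect within each Sry state were recomputed for S100a8 alone.

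Counts over all probe sets moved more. For Sry averaged, 692 became 1176 and 1070 with means of at least 5 and 6, 1266 with an intensity trend, 1453 with array weights, 312 with the actin covariate, and 340 to 834 with 1 array left out. In XX mice 94 became 216 with the trend, 246 with weights and 30 to 142 with 1 array left out. In XY- mice 1248 became 8 with the actin covariate, 58 with only the groups compared and 270 to 1456 with 1 array left out. For the averaged complement 26 became 16 and 13 with the filters and 21 to 34 with 1 array left out. For XX against XY- 24 became 14 and 9 with the filters, 37 with the trend, 43 with weights and 18 to 92 with 1 array left out. For XXsry against XY-sry 24 became 15 with a mean of at least 6, 51 with the trend, 130 with weights, 99 with the replicate block, 83 with only the groups compared and 20 to 176 with 1 array left out. The interaction count of 169 became 109 after quantile normalization, 267 with the trend, 456 with weights, 433 with the replicate block, 0 with the actin covariate (limma, adjusted p) and 0 to 525 with 1 array left out.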

Other observations

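The thymocyte markers summed to 12199 to 12427 in XXsry, against 12343 to 13233 in XX, and to 12217 to 12862 in XY-sry, against 12407 to 12987 in XY-. The epithelial markers summed to 2790 to 2844 in XXsry, against 2429 to 2545 in XX, so that every XXsry array lay above every XX array, and to 2516 to 2736 in XY-sry, against 2250 to 2729 in XY-, which overlapped. The primary granule genes summed to 56.8 to 58.8 in XXsry, against 64.3 to 66.8 in XX, and these did not overlap. They summed to 56.0 to 68.9 in XY-sry, against 63.4 to 83.0 in XY-. Of these 5 genes, 0 had a mean of at least 5. Among single probe sets 7.39% lay lower in XXsry than in XX with no overlap. No such share was worked out for sums over a list, so these separations are a description.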
